A study of Homo sapiens with 12 samples.

Results

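The integrated stress response was followed through 10 genes, ATF4, ATF3, ATF5, DDIT3, CEBPB, PPP1R15A, TRIB3, CHAC1, SESN2 and DDIT4, which are regulators and early effectors of the ATF4 branch. They were taken by gene symbol, and all 10 were found among the 34687 rows of the expression table. Expression had been measured on Illumina HumanHT-12 BeadChips, on which labelled RNA binds to probes carried by beads, in 2 established cancer cell lines, HCT116 (colon) and PANC1 (pancreas). The cells received 0.05% DMSO, the solvent and control, or 10 uM of ICG-001 or C646, and RNA was taken after 12 or 96 h. ICG-001 is a small molecule that keeps the co-activator CBP from binding β-catenin, and C646 inhibits the acetyltransferase activity of CBP and of its relative p300. The 12 groups were therefore HCT116 with DMSO, ICG-001 or C646 at 12 and 96 h, and PANC1 with DMSO, ICG-001 or C646 at 12 and 96 h. The labels give no genetic change for any group. Per the study's methods, the 96 h cultures were less confluent than the 12 h cultures when drug or DMSO was first added, were passaged, and had medium and drug renewed daily.

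In this pathway, kinases that sense amino acid shortage, misfolded protein in the endoplasmic reticulum, viral RNA or haem shortage phosphorylate the translation factor eIF2 on its alpha subunit. Most translation then slows, while the mRNAs of ATF4 and ATF5 are translated better because of upstream open reading frames in their leaders. ATF4 protein pairs with C/EBP family members such as CEBPB and switches on further regulators, ATF3 and DDIT3 (CHOP), together with enzymes, transporters and tRNA synthetases that restore amino acid supply. Its early targets include PPP1R15A (GADD34) and TRIB3, which feed back on the response, CHAC1, which degrades glutathione, and SESN2 and DDIT4 (REDD1), which restrain the growth kinase complex mTORC1. Arrays report mRNA, so the translational step is not seen in these data.

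Each group had 1 column of signals, averaged by the authors from 2 arrays (3 for PANC1 with ICG-001 at 12 h). The ratios below therefore have no replicate check, no error and no test. A ratio of at least 1.5, with a signal above the detection limit on at least 1 side of the ratio, is called a rise or a fall. The detection limit, set from the peak of background signals, lay at 146 to 147 for HCT116 and 138 to 139.8 for PANC1, and 42.6% to 44.5% of all rows exceeded it. From 8 to 10 of the 10 genes were above the limit in each column, with CHAC1 and SESN2 the genes that fell below it. Background stayed in the signal, so ratios of dim genes understate their changes, and the lines were normalized apart, so signals were compared within a line. In a bulk sample, fewer cells that express a gene and less RNA per cell cannot be told apart.

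The labelled cell types had part of the markers listed for them. In HCT116 the epithelial genes EPCAM, CDH1, KRT8 and KRT19 were above the limit in all 6 columns, with EPCAM at 6553 to 9562, as was the intestinal factor CDX2 at 354 to 452, while the colon markers VIL1 and LGALS4 were under it in all 6 and KRT20 in 5 of 6. In PANC1, KRT8, KRT19 and VIM were above the limit in all 6 columns, with VIM at 14637 to 18144, and the ductal keratin KRT7 was barely above it at 148 to 185. Presence above the limit did not separate the lines for most of these genes. EPCAM (509 to 873), CDH1 and CDX2 (187 to 223) were above it in all 6 PANC1 columns too, and LGALS4 in 4. In HCT116, VIM (257 to 335) was above it in all 6 columns, and KRT7 in 4, at up to 389. The leukocyte and endothelial markers PTPRC, CD3E and PECAM1 were under the limit in all 12 columns, the pancreatic islet and acinar markers INS and PRSS1 exceeded it in 1 HCT116 column each, and the fibroblast collagen gene COL1A1 was above it in all 12, at 173 to 217 for HCT116 and 181 to 379 for PANC1.

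ATF4 and C/EBP proteins bind DNA as pairs at composite sites whose core reads TGATGNAA, and ATF family proteins also bind the cyclic AMP response element TGACGTCA. Both were looked for, on both strands, in RefSeq promoter windows (build GRCh38.p14) that run from 250 bases before to 50 bases after a start site. The 10 genes had 18 such windows. The composite core was present in 1 window each of CHAC1 and ATF3, and in 3.62% of all 35116 windows. The cyclic AMP response element was present in the window of PPP1R15A, and in 1.85% of all windows. The 3 stretches are shown because they are the matches among the 10 genes, on the plus strand, which is the gene strand in each case, with the match in capitals.
CHAC1, chr15:40953242-40953289: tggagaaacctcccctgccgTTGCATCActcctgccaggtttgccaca
ATF3, chr1:212565196-212565243: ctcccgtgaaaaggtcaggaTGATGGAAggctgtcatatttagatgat
PPP1R15A, chr19:48872343-48872390: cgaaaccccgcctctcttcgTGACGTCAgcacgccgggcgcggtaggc
The capitals begin at position -209 from the CHAC1 start site, where the core lies on the opposite strand, at -191 from the upstream ATF3 start site and at -58 from the PPP1R15A start site, where the element reads the same on both strands. A match is a description of letters and not a measured binding site, and windows without a match leave the rest of a gene unread.

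ICG-001 raised nearly the whole set in both cell lines. At 12 h, 9 of 10 genes rose in HCT116, where 5.10% of the 16089 genes compared rose, and 9 of 10 rose in PANC1, where 2.33% of 16159 did. At 96 h, 8 of 10 rose in HCT116 against 5.40% of all genes compared, and 8 of 10 rose in PANC1 against 4.07%. No gene of the set fell in any of these comparisons. The median log2 change of the 10 genes at 12 and 96 h was 1.12 and 0.96 (HCT116) or 0.97 and 0.81 (PANC1), while over all genes compared the median lay between -0.0168 and 0.00395 in the 8 comparisons with DMSO. In HCT116, both ICG-001 columns lay above all 4 DMSO and C646 columns for 10 of 10 genes, an order found for 12.0% of genes above the limit in that line. In PANC1 the same order held for 9 of 10 genes, ATF5 being the exception, and for 9.55% of genes above the limit.

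**Figure D1:**
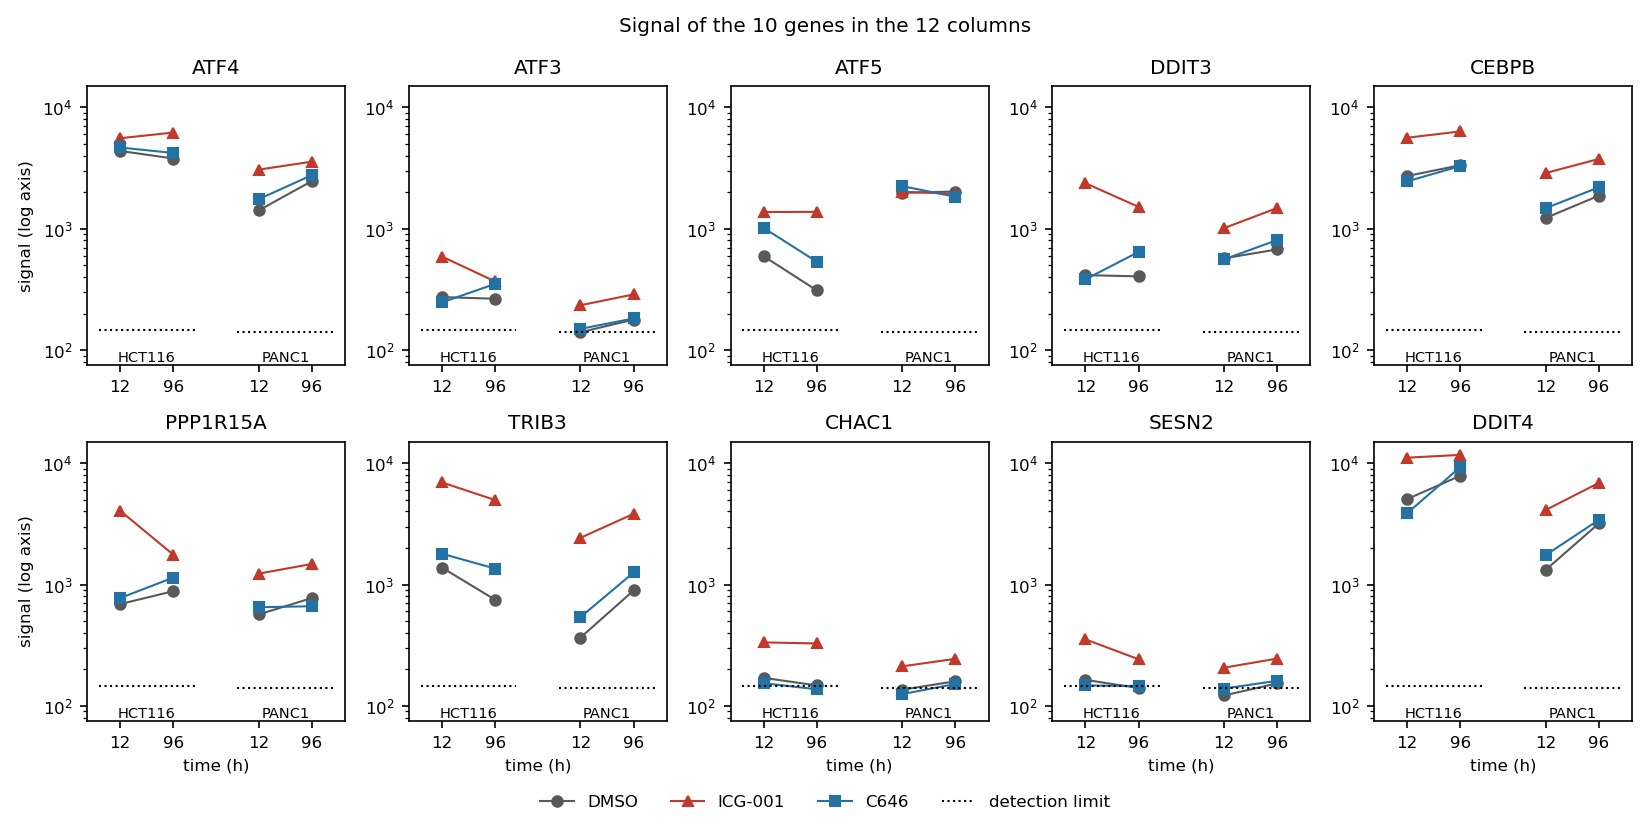
Signal of each gene on a log axis against time, 12 and 96 h, with HCT116 on the left and PANC1 on the right of each panel; each point is 1 column (the authors' mean of 2 or 3 arrays), lines join the time points of a treatment, and the dotted line is the highest detection limit of the line's columns. ICG-001 points lie above DMSO and C646 points of the same line for 10 of 10 genes in HCT116 and 9 of 10 in PANC1. The DMSO points of CHAC1 and SESN2 at 12 h lie above the limit in HCT116 and under it in PANC1.

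ATF4 itself, the central transcription factor, was far above the detection limit in every column. Its signal in HCT116 was 4374 (DMSO), 5569 (ICG-001) and 4672 (C646) at 12 h, and 3789, 6207 and 4206 in that order at 96 h. The PANC1 signal was 1416 (DMSO), 3069.8 (ICG-001) and 1752 (C646) at 12 h, and 2475, 3570.1 and 2769 in that order at 96 h. The ICG-001 column was the highest at both times in both lines, but the ratio to DMSO reached 1.5 only at 96 h in HCT116 (1.64-fold) and at 12 h in PANC1 (2.17-fold), and was 1.27-fold and 1.44-fold in the others. In PANC1 the DMSO signal of ATF4 itself rose 1.75-fold from 12 to 96 h, so that the ICG-001 ratio at 96 h was taken against a higher control. Set against DMSO of the other time point, the HCT116 ratios of ATF4 were 1.47-fold at 12 h and 1.42-fold at 96 h. Neither reached 1.5.

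DDIT3, which encodes CHOP, a C/EBP family factor tied to stress-induced cell death, gave a large response in HCT116. Its HCT116 signal was 414 (DMSO), 2373 (ICG-001) and 383 (C646) at 12 h, and 405, 1512 and 644 in that order at 96 h. The 12 h rise of 5.73-fold ranked 3 among 16089 genes compared, and the 96 h rise was 3.73-fold. In PANC1 the signal was 570.5 (DMSO), 1011 (ICG-001) and 559 (C646) at 12 h, and 675, 1482 and 807 in that order at 96 h. The PANC1 rises were smaller, at 1.77-fold and 2.19-fold, and grew between 12 and 96 h where those of HCT116 shrank.

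ATF3, a factor of the same bZIP class that is induced by many stresses, lay nearer to the detection limit. Its signal in HCT116 was 273 (DMSO), 590.2 (ICG-001) and 247 (C646) at 12 h, and 265, 367 and 351 in that order at 96 h. ICG-001 raised it 2.16-fold at 12 h, and at 96 h the ratio was 1.39-fold with C646 at nearly the same signal. Its signal in PANC1 was 140.3 (DMSO), 234 (ICG-001) and 149.6 (C646) at 12 h, and 179, 288 and 182 in that order at 96 h. There the DMSO signal at 12 h was within 1 unit of the detection limit, and ICG-001 raised it 1.67-fold and 1.61-fold, of which the 12 h rise was not called with the limit at double the peak signal. A row of the table can average several probes of a gene, and how many stand behind ATF3 was not given in the sources used here.

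ATF5, whose translation is controlled like that of ATF4, rose in HCT116 and gave no call in PANC1. In HCT116 its signal was 594 (DMSO), 1373 (ICG-001) and 1016 (C646) at 12 h, and 310.1, 1377 and 534 in that order at 96 h. Both drugs raised it there, ICG-001 by 2.31-fold and 4.44-fold and C646 by 1.71-fold and 1.72-fold at 12 and 96 h. The ICG-001 signal was nearly the same at both times, so the larger 96 h ratio came with the DMSO signal, which fell 1.92-fold between them. The C646 signal of 96 h, 534, was below the DMSO signal of 12 h, 594. In PANC1 it was 1976 (DMSO), 2014 (ICG-001) and 2244 (C646) at 12 h, and 2025, 1943 and 1832 in that order at 96 h, with ratios to DMSO of 0.904 to 1.14 over the 4 comparisons.

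CEBPB, a dimer partner of ATF4, gave the most even response to ICG-001. Its HCT116 signal was 2716 (DMSO), 5620.3 (ICG-001) and 2456 (C646) at 12 h, and 3342, 6336 and 3286 in that order at 96 h. The PANC1 signal was 1227 (DMSO), 2877 (ICG-001) and 1476 (C646) at 12 h, and 1873, 3759 and 2196 in that order at 96 h. ICG-001 raised it 1.90-fold to 2.35-fold over the 4 comparisons, the narrowest range on the log2 scale among the 6 genes called in all 4 (DDIT3, TRIB3, CHAC1, SESN2, PPP1R15A and CEBPB). The C646 ratios were 0.904 to 1.2.

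Among the feedback genes, PPP1R15A encodes the inducible subunit that brings protein phosphatase 1 to eIF2 and so ends the response. Its HCT116 signal was 690.5 (DMSO), 4059 (ICG-001) and 774 (C646) at 12 h, and 883, 1758 and 1143 in that order at 96 h. The 12 h rise with ICG-001, 5.88-fold, ranked 2 of 16089, and by 96 h the ratio was 1.99-fold. In PANC1 its signal was 567 (DMSO), 1230.1 (ICG-001) and 650.2 (C646) at 12 h, and 775, 1479.6 and 663 in that order at 96 h, and the rises with ICG-001 were 2.17-fold and 1.91-fold. The promoter stretch printed for this gene above carries the cyclic AMP response element.

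TRIB3, a pseudokinase that binds ATF4 and CHOP and dampens their activity, was among the strongest responders in every ICG-001 comparison. Its signal in HCT116 was 1381 (DMSO), 6949 (ICG-001) and 1795 (C646) at 12 h, and 749, 4968 and 1354 in that order at 96 h. Its signal in PANC1 was 366 (DMSO), 2427 (ICG-001) and 539 (C646) at 12 h, and 895, 3832 and 1259 in that order at 96 h. ICG-001 raised it 5.03-fold and 6.63-fold for HCT116 and 6.63-fold and 4.28-fold for PANC1 at 12 and 96 h. These rises ranked 7, 4, 2 and 11 among 16089, 16246, 16159 and 16382 genes compared. It was also the gene of the set with the highest ratio to DMSO under C646 at 96 h in both lines and at 12 h in PANC1, at 1.81-fold for HCT116 and 1.47-fold and 1.41-fold for PANC1, of which the HCT116 value passed 1.5-fold. The C646 signal behind that value, 1354, was just below the HCT116 DMSO signal of 12 h, 1381.

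CHAC1, an enzyme that breaks down glutathione, sat at the edge of detection without ICG-001. Its HCT116 signal was 170.4 (DMSO), 334 (ICG-001) and 154 (C646) at 12 h, and 147, 327 and 137 in that order at 96 h. In PANC1 it was 136 (DMSO), 212 (ICG-001) and 125 (C646) at 12 h, and 159.8, 245 and 152 in that order at 96 h. ICG-001 raised it 1.96-fold and 2.22-fold in HCT116, at least 1.52-fold in PANC1 at 12 h, where the DMSO column was under the limit, and 1.53-fold there at 96 h. With the background peak subtracted, the log2 changes moved from 0.97 and 1.15 to 2.30 and 3.42 for HCT116 at 12 and 96 h. The 3.42 rests on a DMSO signal of 147 against a peak of 129, little above the floor of that setting. The PANC1 change at 96 h moved from 0.61 to 1.73. At 12 h in PANC1 the DMSO signal was at that floor and gave no size. With the detection limit at double the peak signal, neither PANC1 rise was called. The 4 C646 signals were lower than their DMSO signals by log2 changes of -0.15 to -0.08, none of them called, and the C646 column was under the limit in HCT116 at 96 h, as were both columns in PANC1 at 12 h.

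The mTORC1 restraining genes moved with the set. SESN2, a sestrin that also senses leucine, had an HCT116 signal of 164 (DMSO), 354 (ICG-001) and 147 (C646) at 12 h, and 140.3, 242 and 146 in that order at 96 h. The PANC1 signal was 122 (DMSO), 207 (ICG-001) and 139 (C646) at 12 h, and 153, 245 and 161 in that order at 96 h. ICG-001 raised it 2.16-fold in HCT116 at 12 h, at least 1.66-fold there at 96 h, at least 1.48-fold in PANC1 at 12 h and 1.60-fold there at 96 h. The DMSO columns behind both lower bounds were under the limit, and the PANC1 bound at 12 h falls just short of 1.5 although the measured ratio, 1.69, passes it. With the background peak subtracted, the log2 change moved from 1.11 to 2.67 in HCT116 at 12 h and from 0.68 to 2.02 in PANC1 at 96 h, and in the other two the DMSO signal was at the floor and gave no size. With the limit at double the peak signal, the HCT116 rise at 12 h was the one still called.

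DDIT4, which restrains mTORC1 through TSC1 and TSC2 and is also induced by hypoxia and glucocorticoids, was far above the limit throughout. Its HCT116 signal was 5060.3 (DMSO), 11105 (ICG-001) and 3866 (C646) at 12 h, and 7891, 11709 and 9299.5 in that order at 96 h. Its signal in PANC1 was 1321 (DMSO), 4112 (ICG-001) and 1749 (C646) at 12 h, and 3197, 6886 and 3415 in that order at 96 h. ICG-001 raised it 2.19-fold in HCT116 at 12 h and 3.11-fold and 2.15-fold in PANC1. At 96 h in HCT116 the ratio of 1.48 missed the threshold, with the ICG-001 signal as high as at 12 h and the DMSO signal 1.56-fold higher than at 12 h.

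**Figure D2:**
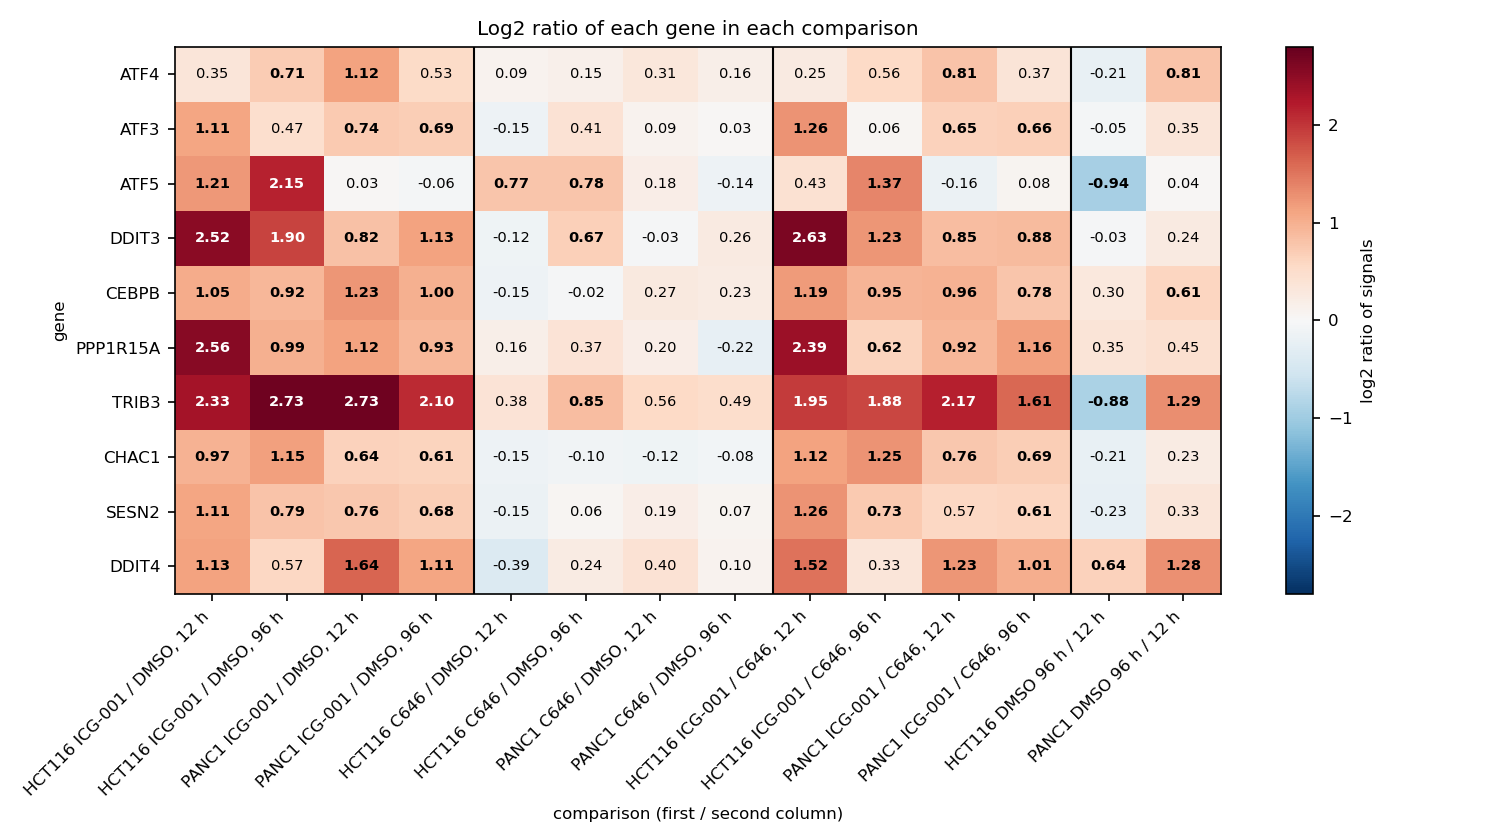
Log2 ratio of signals for each gene (rows) in each comparison (columns), with ICG-001 over DMSO, C646 over DMSO, ICG-001 over C646 and DMSO 96 h over 12 h in blocks from left to right; colour and number give the ratio of 1 column to another, and bold numbers passed 1.5-fold with the gene above the limit. The ICG-001 block is positive except for ATF5 in PANC1 at 96 h, the highest values being 2.73 for TRIB3, and the C646 block holds 4 calls, all in HCT116.

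C646 left most of the set near its DMSO level. At 12 h, 1 of 10 genes rose in HCT116, ATF5, where 2.74% of genes compared rose, and 0 rose in PANC1, where 4.26% did. At 96 h, 3 of 10 rose in HCT116, ATF5, DDIT3 and TRIB3, against 1.99% of genes compared, and 0 rose in PANC1 against 2.96%. Of these 3, ATF5 and TRIB3 were not called against DMSO of 12 h, with C646 signals of 534 and 1354 against 594 and 1381. In the same exchange DDIT4 and PPP1R15A were called higher instead. The median log2 change of the 10 genes was -0.13 and 0.30 for HCT116 and 0.19 and 0.08 for PANC1. DDIT4 gave the lowest ratio of the set, 0.764 in HCT116 at 12 h. The C646 and ICG-001 comparisons of a line and time share their DMSO column. The calls for C646 depended on the threshold. At 1.2-fold, 2 of 10 rose and 1, DDIT4, fell in HCT116 at 12 h, where 11.2% of genes compared rose and 11.8% fell. At the same threshold 5 rose there at 96 h against 10.3%, and 4 and 1 rose in PANC1 at 12 and 96 h against 14.2% and 10.6%. At 2-fold no gene of the set was called in any of the 4.

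**Figure D3:**
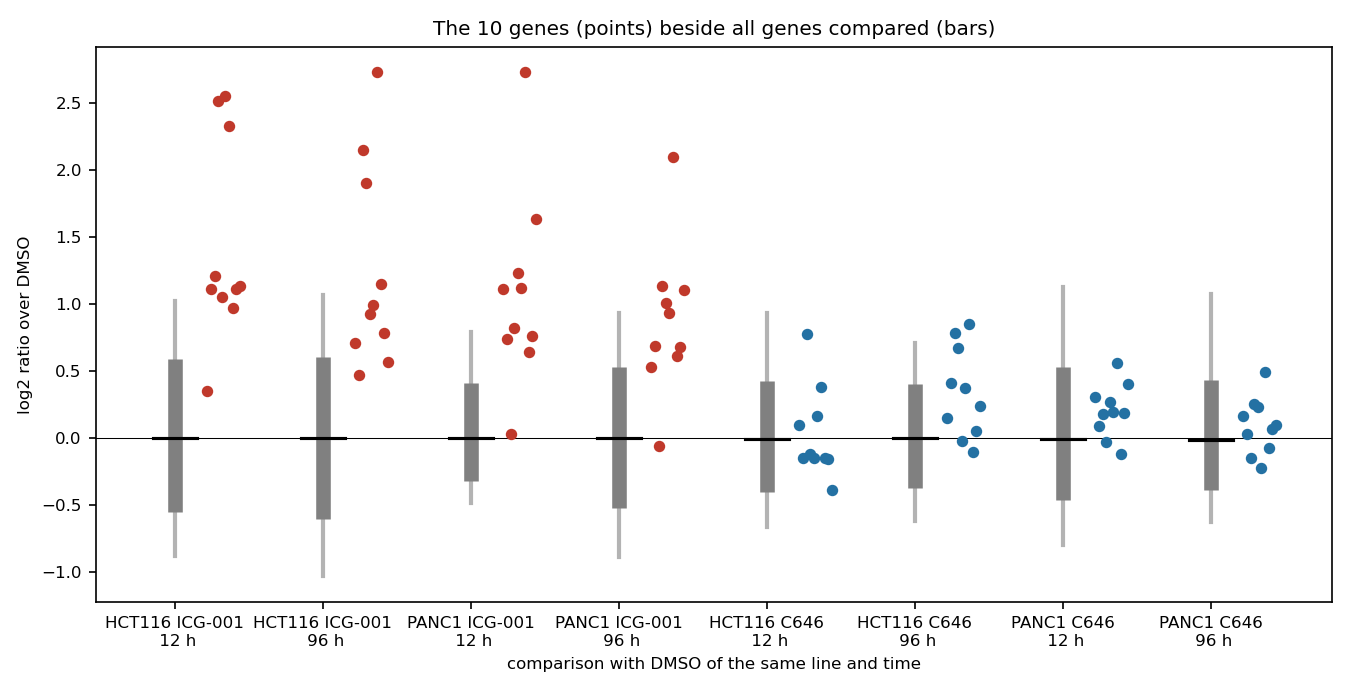
Log2 ratio over DMSO of the 10 genes (points, 1 per gene) beside all genes compared in the same pair of columns, shown as a black line at the median, a thick bar from the 5th to the 95th percentile and a thin bar from the 1st to the 99th. Under ICG-001, 8 or 9 of the 10 points lie above the thick bar in each comparison, and under C646, 1 to 4 of 10 do.

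A direct comparison of the drugs uses no DMSO column. At 12 h, 8 of 10 genes were at least 1.5-fold higher with ICG-001 than with C646 in HCT116, against 3.65% of genes compared, and 8 of 10 in PANC1, against 1.69%. At 96 h, 7 of 10 were higher in HCT116 against 3.40%, and 8 of 10 in PANC1 against 3.54%. None was at least 1.5-fold lower. The largest ratios were those of DDIT3 in HCT116 at 12 h (6.20-fold), PPP1R15A there (5.24-fold) and TRIB3 in PANC1 at 12 h (4.50-fold). ATF3 in HCT116 went from 2.39-fold at 12 h to 1.05 at 96 h, where the drugs gave nearly equal signals.

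The ICG-001 columns of each line were also compared over time. In HCT116 under ICG-001, 3 of 10 genes, ATF3, DDIT3 and PPP1R15A, fell between 12 and 96 h, by 1.61-fold, 1.57-fold and 2.31-fold, where 2.94% of genes compared fell. ATF4, ATF5, CEBPB, DDIT4 and CHAC1 held their ICG-001 signal, with ratios of 96 to 12 h from 0.980 to 1.13. In PANC1 under ICG-001, 2 of 10, TRIB3 and DDIT4, rose by 1.58-fold and 1.67-fold, against 2.38% of genes compared.

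The DMSO columns moved too. In PANC1 with DMSO, 4 of 10 genes rose from 12 to 96 h, TRIB3 by 2.45-fold, DDIT4 by 2.42-fold, ATF4 by 1.75-fold and CEBPB by 1.53-fold, where 1.03% of genes compared rose, and TRIB3 and DDIT4 ranked 7 and 8 of 15790. For 9 of 10 genes in PANC1, all but ATF5, the 96 h signal was above the 12 h signal with DMSO, ICG-001 and C646 alike, an order found for 18.9% of genes above the limit. In HCT116 that order held for 2 of 10, DDIT4 and CEBPB, and for 23.7% of genes above the limit. In HCT116 with DMSO, 1 of 10 genes rose, DDIT4, against 1.63% of genes compared, and 2 fell, ATF5 by 1.92-fold and TRIB3 by 1.84-fold, against 1.64%. The DDIT4 rise, 1.56-fold, was not called with quantile normalization over all 12 columns. Confluency, passaging and renewal of the medium differed between the 12 and 96 h cultures and cannot be told apart from time.

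The choice of control column therefore mattered, most in PANC1 at 12 h. Set against the DMSO column of 96 h, the PANC1 ICG-001 signals of 12 h gave 3 calls instead of 9, TRIB3 at 2.71-fold, PPP1R15A at 1.59-fold and CEBPB at 1.54-fold, where 0.825% of all genes compared were called higher in the same pair of columns. For ATF4 and DDIT4 these ratios were 1.24 and 1.29, so most of their excess at 12 h, on the log2 scale, had also been reached with DMSO by 96 h. In HCT116 the same exchange gave 8 calls, with TRIB3 at 9.28-fold, against 6.62% of all genes. DDIT4, at 1.41-fold, was no longer called there. The ICG-001 signals of 96 h set against DMSO of 12 h gave 9 calls in PANC1, with TRIB3 at 10.5-fold, against 6.95%, and 7 in HCT116 against 6.72%. In HCT116 this lost ATF4 (1.42-fold) and SESN2 (1.48-fold) and gained DDIT4 (2.31-fold). This exchange was chosen after the values had been seen.

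Genes related to the 10 by sequence were also read. Of 12 paralogues, 11 could be compared for HCT116 and 9 for PANC1. With ICG-001, 2 rose and 2 fell in HCT116 at 12 h, 2 and 0 at 96 h, 1 and 0 in PANC1 at 12 h, and 3 and 1 at 96 h. Over all genes compared, 5.10%, 5.40%, 2.33% and 4.07% rose in that order. The shares that fell were 4.40% in HCT116 at 12 h and 3.77% in PANC1 at 96 h. CEBPD, another C/EBP protein, rose at 12 h in HCT116 (0.73) and at 96 h in PANC1 (0.74). CEBPG, a C/EBP protein that also dimerises with ATF4, rose in all 4, with log2 changes of 1.11 and 1.56 for HCT116 and 1.04 and 1.09 for PANC1, and of -0.34 to 0.03 under C646. JDP2, the closest relative of ATF3, rose at 96 h, by 0.77 for HCT116 and 0.76 for PANC1, and was 0.46 and 0.44 at 12 h. PPP1R15B, the constitutive counterpart of PPP1R15A, had log2 changes of -0.18 to 0.09 with ICG-001, and SESN1 of -0.06 to 0.20. TRIB2 was below DMSO in all 4, with falls past the threshold at 12 h in HCT116 (-0.74) and at 96 h in PANC1 (-0.84), and DDIT4L fell in HCT116 at 12 h (-1.13).

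Upstream of ATF4, the mRNA of EIF2AK4 (GCN2), the kinase that senses uncharged tRNA, was higher with both drugs. Its log2 changes in HCT116 at 12 and 96 h were 0.44 and 0.61 for ICG-001, beside 1.11 and 0.61 for C646. The PANC1 values were 0.70 and 0.61 for ICG-001, beside 1.21 and 1.15 for C646, and all of the 8 values except that of ICG-001 at 12 h in HCT116 passed 1.5-fold. At 12 h in both lines and at 96 h in PANC1 the C646 values were above those of ICG-001, whereas for 9 of the 10 genes they were below them in all 4 pairs of columns. The haem-regulated kinase EIF2AK1, the double-stranded RNA kinase EIF2AK2 and the endoplasmic reticulum kinase EIF2AK3 (PERK) stayed between -0.40 and 0.34 in all 8 comparisons, and EIF2S1, the phosphorylated subunit, between -0.23 and 0.35. Of the 11 genes listed as eIF2 kinases and phosphatase, 1 other than those above fell with ICG-001 in HCT116 at 12 h. In PANC1 at 96 h, 1 other than those above fell too. The shares of all genes compared that fell were 4.40% and 3.77% in that order. Phosphorylation was not measured.

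Further targets of the pathway rose with ICG-001 as well. Over all genes compared, 5.10% and 5.40% rose for HCT116 and 2.33% and 4.07% for PANC1 at 12 and 96 h. Of the tRNA synthetase genes, 7 and 8 of 12 rose for HCT116 and 7 and 6 of 12 for PANC1 at 12 and 96 h, with none lower, and WARS, for tryptophan, rose most in the mean over these comparisons, with log2 changes of 1.38, 2.11, 0.66 and 1.2. Of the amino acid enzymes, 5 of 10 and 7 of 11 rose for HCT116 and 6 and 10 of 12 for PANC1, among them the serine synthesis gene PSAT1 with log2 changes of 1.03, 2.18, 1.82 and 1.76. Of the amino acid transporters, 3 and 5 of 8 rose for HCT116 and 4 and 5 of 8 for PANC1. SLC7A5, a leucine transporter, was the transporter that passed 1.5-fold with C646 too, at 96 h in HCT116 (0.80) and at 12 h in PANC1 (1.27), beside 1.74, 2.47, 1.62 and 0.85 with ICG-001. Of other ATF4 and CHOP targets, 11 and 11 of 15 rose for HCT116 and 8 and 8 of 17 for PANC1. With C646, from 0 to 3 genes of any of these 4 lists rose in a comparison, where 1.99% to 4.26% of all genes compared did.

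Stress programmes that share genes or triggers with the 10 were read from lists of their targets. Of all genes compared, 5.10% and 5.40% rose with ICG-001 in HCT116 at 12 and 96 h, and 2.33% and 4.07% in PANC1. Of the chaperone genes driven by ATF6 and XBP1, the other arms of the unfolded protein response, 3 of 13 and 5 of 14 rose with ICG-001 in HCT116, and 0 and 1 of 14 in PANC1, where 5 fell at 96 h against 3.77% of all genes compared. HSPA5 (BiP), the main chaperone of this arm, had log2 changes of 0.92 and 1.14 for HCT116 and 0.36 and 0.61 for PANC1, while CALR had -0.91, -0.65, -0.56 and -1.35. Of the p53 targets, 1 of 9 rose with ICG-001 at each time in HCT116, CDKN1A (1.06 and 1.12), and 0 in PANC1. With C646, 1 of 9 rose at each time in HCT116, against 2.74% and 1.99% of genes compared. In HCT116 at 12 h 1 of 9 also fell, where 260 of 16105 genes did. In PANC1 1 of 9 rose with C646 at 12 h, against 4.26%, and 0 at 96 h. The median log2 change of the p53 targets at 96 h in HCT116 was 0.41 with C646 and 0.25 with ICG-001. Of the hypoxia targets, which DDIT4 is known to join, 5 of 9 fell with ICG-001 at each time in HCT116, where 4.40% and 5.38% of all genes compared fell, and 0 rose. In PANC1, 1 of 7 rose and 0 fell at 12 h, while at 96 h 0 rose and 3 fell, against 3.77% of all genes compared. With C646, 4 of 9 rose in HCT116 at 96 h, against 1.99%, and in the other C646 comparisons at most 1 was called. The median log2 change of these targets from 12 to 96 h with DMSO was 0.82 for HCT116 and 0.44 for PANC1, beside 0.64 and 1.28 for DDIT4. The part of these programmes in the values of the 10 genes was not tested. The mTORC1 regulator genes gave no call with ICG-001, and the eIF2B and eIF2 subunit genes gave 1, EIF2B2 in PANC1 at 96 h (-0.89).

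**Figure D4:**
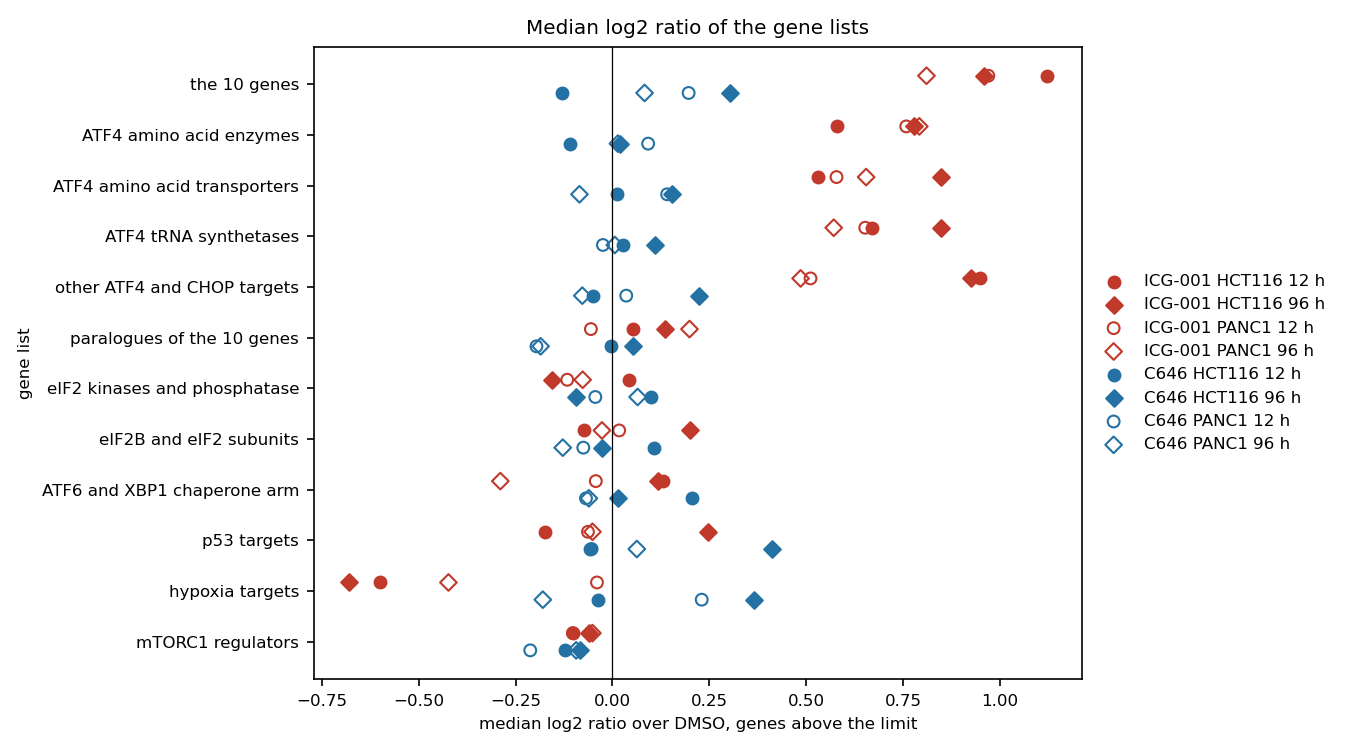
Median log2 ratio over DMSO, taken over the genes of each list above the limit, for the 10 genes and 11 other lists (rows); red is ICG-001 and blue C646, filled symbols are HCT116 and open ones PANC1, circles 12 h and diamonds 96 h. The 10 genes have the highest ICG-001 medians, 0.81 to 1.12, the 4 lists of ATF4 targets follow, and the C646 medians of these 5 lists lie from -0.13 to 0.30.

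The genes whose changes lay nearest to the median profile of the set were sought by the root mean square difference of log2 changes over the 8 comparisons with DMSO, among 16074 genes above the limit in at least 1 column of each line. Outside the set these were ADM2 (an adrenomedullin family peptide, difference 0.0939), MTHFD2 (a mitochondrial folate enzyme, 0.0999), TUBE1 (epsilon tubulin, 0.141), YARS (tyrosyl-tRNA synthetase, 0.208), ULBP1 (a ligand of the natural killer cell receptor NKG2D, 0.219) and ATF6 (the endoplasmic reticulum stress factor, 0.222). ADM2 had log2 changes of 1.18 and 0.98 with ICG-001 for HCT116 and 0.98 and 0.91 for PANC1, and ATF6 of 1.31, 1.14, 0.71 and 0.86. MTHFD2 and YARS are also on the target lists above. Among the 10, whose own values set that median, SESN2 and CEBPB lay nearest the median and TRIB3 and ATF5 farthest, with differences of 0.139, 0.176, 1.13 and 0.723.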

How the data were processed

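RNA from the 12 groups was hybridised to Illumina HumanHT-12 v4 BeadChips. By the study's methods, the authors quantile-normalized the arrays in GenomeStudio, left background in the signal, and averaged replicates. The deposited values are these mean intensities on a linear scale, 1 per gene name, and neither single arrays nor detection p-values entered, so n is 1 column per group and the number of arrays limits the precision.

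Columns were assigned to groups from the labels. Signals were converted to log2 and subtracted. The detection limit was the 99th percentile of a normal distribution centred on the peak of a column's log2 signals, with the SD of the values below the peak. Mean absolute differences of sorted log2 signals were 0.00371 to 0.00929 within a line and 0.0628 to 0.0661 between lines. Genes were called at 1.5-fold when above the limit in at least 1 column compared. Where 1 column was at or under the limit, the fold is at least the brighter signal over that limit.

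The 10 genes, the gene lists, the motifs and the thresholds were chosen with earlier results of these data known. Named genes were the 10, their paralogues, the eIF2 kinases, the 2 largest rises and 2 largest falls of each other list in the mean over the ICG-001 comparisons, and the 6 genes nearest to the median profile. Older symbols are kept as the table gives them. Of the listed genes, those without a row were not analysed here. The alternatives tried were 1.2-fold and 2-fold thresholds, no filter, limits at 5 SD and at double the peak signal, normexp (offset 16), subtraction of the peak signal with a floor of 16, centring, quantile normalization over all 12 columns, and, added later, the DMSO column of the other time point. Computation used scipy 1.17.1, pandas 2.3.3 and numpy 2.4.6 (Python 3.11.15), limma 3.58.1 (R 4.3.3) for normexp, and matplotlib 3.10.9 for plots. The calling step was run on simulated columns, with 2-fold rises given to genes well above the limit. That run does not bear on rises of dim genes, ratios near 1.5-fold or spread between replicates.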

Additional observations from a re-analysis of the deposited data

Results flagged for a closer look

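CHAC1 had signals above DMSO in all 4 ICG-001 comparisons, each called, and below DMSO in all 4 C646 comparisons, none called. Its mean log2 change was 0.95 higher with ICG-001. Among 16074 genes detected in HCT116 as well as PANC1, 275 (1.71%) had ratios on opposite sides of 1 in this way, and the difference was not tested. The C646 changes of CHAC1 were -0.15 to -0.08. The C646 column was under the detection limit in HCT116 at 96 h, and in PANC1 at 12 h so were both columns, so no fall with C646 is shown.

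TRIB3 fell past 1.5-fold from 12 to 96 h with DMSO in HCT116 (log2 change -0.88) and rose past it in PANC1 (1.29), a difference of -2.17 for HCT116 minus PANC1. Opposite calls in this comparison were found for 5 of 16074 genes. Each side is 1 pair of columns, and the difference was not tested. With 1 column per group, no search for outlying samples was possible.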

How the results depend on the processing

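Of the 14 counts of called genes, none moved by over 1.5 times without the filter, with either other limit, after centring or with quantile normalization over all 12 columns. With the limit at double the peak signal, though, ICG-001 over DMSO lost ATF3, CHAC1 and SESN2 at 12 h in PANC1 (6 calls against 9), CHAC1 and SESN2 there at 96 h (6 against 8), and SESN2 at 96 h in HCT116 (7 against 8). Common quantile normalization lost DDIT4 for DMSO over time in HCT116 and SESN2 for ICG-001 over C646 at 96 h in PANC1. It gained DDIT4 for ICG-001 over DMSO at 96 h in HCT116. At 1.2-fold, 3 and 5 genes were called for C646 in HCT116 at 12 and 96 h (1 and 3 at 1.5-fold), 4 and 1 in PANC1 (0 and 0), and 5 and 7 for DMSO over time in HCT116 and PANC1 (3 and 4). At 2-fold, the counts were 4 for ICG-001 at 96 h (HCT116), 5 and 4 in PANC1 at 12 and 96 h, 0 and 0 for C646 in HCT116, 4 for ICG-001 over C646 at 96 h (HCT116), 2 and 3 in PANC1, and 0 and 2 for DMSO over time. With the peak signal subtracted, 3 were called for C646 at 12 h (HCT116), of which CHAC1 and SESN2 were falls near the limit, plus 2 in PANC1, where normexp gave 2 as well, all rises, and 5 (4 of them falls) and 7 (all rises) for DMSO over time. With DMSO of the other time point, the counts were 3 for ICG-001 at 12 h in PANC1, 3 for C646 at 12 h (HCT116), then 2 and 4 in PANC1, the first being falls. For C646 at 96 h in HCT116 the count stayed at 3, but ATF5 and TRIB3 were lost and DDIT4 and PPP1R15A gained. Of 140 log2 changes of single genes, 70 moved under normexp, 78 under subtraction, 0 under centring and 11 under common normalization by more than the SD of log2 ratios of genes under the limit, and no called one changed sign. No paired analysis was possible because each group is 1 pooled column, and no replicate could be left out. Against DMSO under the limit, the ICG-001 ratios of CHAC1 in PANC1 at 12 h and of SESN2 there and in HCT116 at 96 h are bounds.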
